A study of Mus musculus with 60 samples.

Results

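Lipid droplet coat and droplet-assembly genes were followed through adipocyte formation. The set held the 5 perilipins Plin1, Plin2, Plin3, Plin4 and Plin5, the droplet fusion gene Cidec, the fat storage-inducing genes Fitm1 and Fitm2, and the seipin gene Bscl2. They were picked by symbol, and all 9 were among the 24982 genes of each of the 2 deposited tables of FPKM, fragments per kilobase of transcript per M mapped fragments.

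Polyadenylated RNA had been sequenced from C3H10T1/2 cells, a mouse mesenchymal line that turns into fat cells when given adipogenic hormones, at days 0, 2, 4 and 6 of differentiation. The first table held Tet1-KO and WT cells (24 libraries) and the second 23-CATA, 23-Tet1 and 23-NC cells (36 libraries), so that 20 groups had 3 libraries each. TET1, named by the knockout label, is a dioxygenase that oxidises methylated cytosine in DNA. The labels do not say what 23, CATA or NC stand for, how the knockout was made, or whether a population is a single clone. All 5 populations were C3H10T1/2 cells that went through 1 protocol. Once past confluence they received, for 48 h, T3 (1 nM), rosiglitazone (1 µM), insulin (10 µg/ml), IBMX (0.5 mM) and dexamethasone (1 µM). They were then held in insulin at 5 µg/ml, so day 0 cells had not yet met the inducers. Nothing in the labels says that the 3 libraries of a group came from separate cultures, so a p-value covers nothing beyond how far such libraries lay apart.

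Tet1 transcripts spanned 0.24 to 0.26 FPKM in Tet1-KO day 0 libraries and 0.88 to 1.12 FPKM in WT day 0 libraries, and were at or under 0.11 FPKM on later days in both. They spanned 5.75 to 21.56 FPKM over all 23-CATA libraries and 4.04 to 7.46 FPKM over all 23-Tet1 libraries, against at most 0.12 FPKM in 23-NC libraries. Depth, estimated from the FPKM step that 1 fragment makes, was 12.3 to 19.8 M fragments in 59 libraries. It could not be read in Tet1-KO day 6 replicate 2, which stood apart with 11805 genes above 0 and 84.5 FPKM of Gapdh, against 14797 and 14954 genes and 2301 and 6484 FPKM in the other libraries of its group. Each day 6 result of the 9 genes is given with and without that library where its call depends on it.

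A lipid droplet is a core of triglyceride and sterol ester under a single layer of phospholipid, studded with proteins that decide whether it grows, fuses or is broken down. Perilipins sit on that layer and control access of lipases, with Plin1 typical of fat cells, Plin2 and Plin3 found in most cell types, Plin4 placed on nascent droplets and Plin5 typical of oxidative tissues. Cidec (FSP27) gathers at contacts between droplets and passes lipid from the smaller to the larger, the FIT proteins of the endoplasmic reticulum assist droplet budding, and seipin marks the sites where droplets form. Loss of human PLIN1, CIDEC or BSCL2 function causes lipodystrophy.

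Promoter stretches of 4 of these genes are shown because the values separate them: Plin1 and Cidec stood far higher after induction than before it in every population, Plin2 was already abundant at day 0, and Plin3 fell in WT cells in the first step, when the other tested genes rose. The stretches come from RefSeq promoter windows (GRCm38.p6, the build of mm10), run 5′ to 3′ on the minus strand, which all 4 genes use, and leave out untranslated exon stretches annotated in GENCODE M21. The Plin3 window and that of the second Cidec start lie inside the annotated genes and were printed whole. Capitals mark a match to TTGCNNAA, the C/EBP core, or to AGGTCA, the repeat unit of nuclear receptor sites, on either strand.
Plin1, chr7:79732904-79733026: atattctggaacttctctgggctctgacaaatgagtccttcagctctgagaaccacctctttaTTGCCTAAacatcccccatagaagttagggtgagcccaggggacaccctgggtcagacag
Cidec, second start, chr6:113434765-113435014: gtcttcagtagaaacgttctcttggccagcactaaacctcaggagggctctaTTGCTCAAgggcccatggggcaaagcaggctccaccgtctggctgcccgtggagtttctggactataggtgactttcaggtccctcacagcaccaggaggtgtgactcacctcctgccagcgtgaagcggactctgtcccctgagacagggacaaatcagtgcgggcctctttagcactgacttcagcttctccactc
Plin2, chr4:86670061-86670309: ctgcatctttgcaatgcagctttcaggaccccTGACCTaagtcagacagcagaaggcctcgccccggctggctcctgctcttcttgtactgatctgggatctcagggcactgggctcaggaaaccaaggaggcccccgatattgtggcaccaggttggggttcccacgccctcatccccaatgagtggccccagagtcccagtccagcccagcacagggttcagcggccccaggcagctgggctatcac
Plin3, chr17:56290512-56290761: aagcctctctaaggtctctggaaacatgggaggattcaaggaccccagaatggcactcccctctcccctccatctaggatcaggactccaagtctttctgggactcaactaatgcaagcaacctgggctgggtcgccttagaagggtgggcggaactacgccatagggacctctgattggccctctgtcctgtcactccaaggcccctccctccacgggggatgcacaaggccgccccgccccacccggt
Among 32851 windows of 250 bases before a start, 9.56% held TTGCNNAA and 14.0% held AGGTCA on either strand. Plin1 has the C/EBP core 187 to 180 bases before its start and again, outside the stretch shown, 58 to 51 bases before. The second Cidec start has it 198 to 191 bases before, and the window of the first Cidec start holds neither motif. In Plin2 the AGGTCA letters lie on the opposite strand 218 to 213 bases before the start, and in Plin3 no match to either motif was found in the window. All 9 genes had a window. Of the genes not shown, Plin5 and Bscl2 each had AGGTCA in a window. Neither motif was found for Fitm1, Fitm2 or Plin4, though Fitm2 and Plin4 also rose in WT cells in the first step. The E-box CACGTG, found in 6.02% of windows, had no match in those of any of the 9. Only 1 CpG dinucleotide lies in the Plin1 window, against a median of 6 over all windows, 6 in the Plin2 window and 7 in the Plin3 window. Windows of the other genes hold 4 and 6 (Cidec), 2 (Fitm1), 6 (Plin4), 11 (Fitm2), 11 and 14 (Plin5) and 10, 3 and 2 (Bscl2). A match describes letters and not binding.

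At day 0 the droplet message of every population was mostly Plin2, and by day 4 Cidec had the largest mean share in Tet1-KO, WT and 23-CATA cells. As a share of the summed FPKM of the 9 genes, Plin2 took 74.6 ± 3.32% in Tet1-KO and 62.8 ± 3.53% in WT cells at day 0 (mean ± SD, n = 3, as below). In the second table its share was 61.7 ± 1.82% in 23-CATA, 54.5 ± 1.89% in 23-Tet1 and 69.8 ± 2.69% in 23-NC cells. Plin3 came second at day 0 in Tet1-KO (12.6 ± 2.12%), WT (22.6 ± 2.11%), 23-Tet1 (24.5 ± 0.88%) and 23-NC cells (18.2 ± 0.935%), but in 23-CATA cells Plin4 (15.0 ± 1.26%) and Plin1 (8.52 ± 0.411%) stood above or beside it (8.16 ± 0.0771%). FPKM is scaled by transcript length, so the levels of different genes can be set side by side.

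By day 4 Cidec held 49.4 ± 9.59% of the sum in Tet1-KO and 62.0 ± 1.70% in WT cells. The day 4 share was 47.5 ± 0.715% in 23-CATA, 30.8 ± 0.293% in 23-Tet1 and 30.7 ± 0.713% in 23-NC cells. Tet1-KO day 4 libraries differed in this, with Cidec at 40.8 to 59.7% and Plin2 at 29.0 to 47.2%, and Plin2 stood above Cidec in replicate 3. In the first table the populations lay furthest apart at day 2, with Cidec at 18.3 ± 15.1% and Plin2 at 67.2 ± 15.8% in Tet1-KO cells, against 54.0 ± 4.26% and 29.8 ± 4.53% in WT cells. At day 6 Cidec was at 30.2 ± 15.0% and Plin2 at 57.6 ± 16.8% in Tet1-KO cells, against 56.9 ± 0.359% and 25.8 ± 1.28% in WT cells. In 23-Tet1 cells the Cidec share reached 63.7 ± 0.147% at day 6 while that of Plin2 was 19.3 ± 0.601%. The sum itself was 5532 ± 3223 FPKM in Tet1-KO and 9802 ± 692 FPKM in WT cells at day 4, where Tet1-KO replicates ranged widely. In the second table it was highest in 23-CATA cells at day 4 (6975 ± 446 FPKM), and at day 6 stood at 5175 ± 115 FPKM in 23-CATA, 4244 ± 55.4 FPKM in 23-Tet1 and 1276 ± 51.5 FPKM in 23-NC cells. In such bulk samples, fewer cells of a type and less RNA per cell cannot be told apart.

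**Figure D1:**
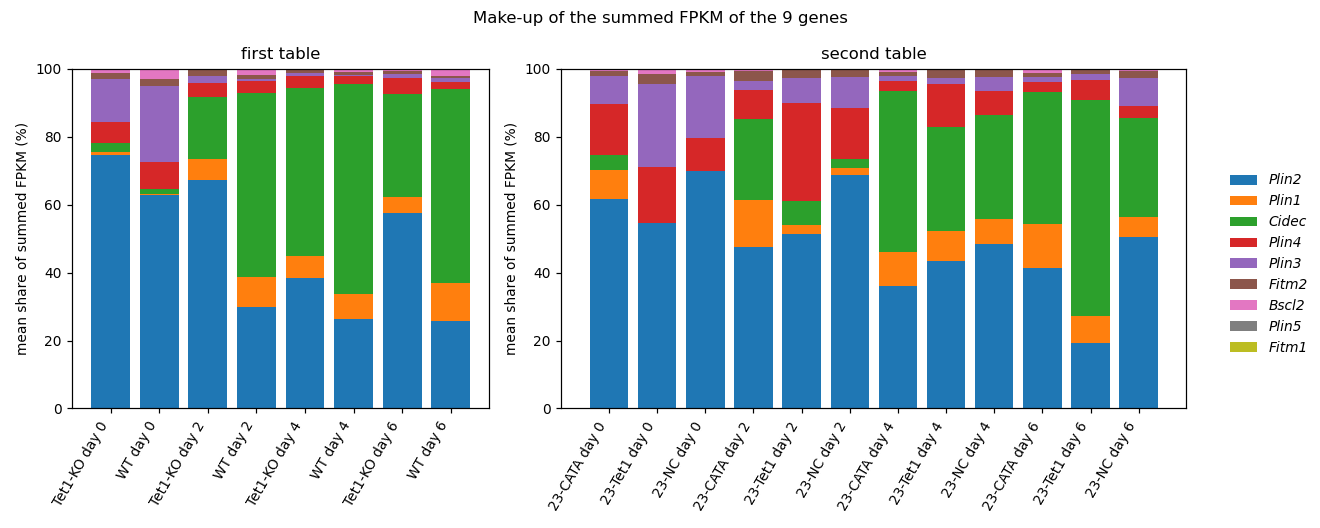
Stacked bars give each gene's mean share, in percent, of the summed FPKM of the 9 genes, by population and day (3 libraries each). Plin2 takes the largest share in every group at day 0, and Cidec takes 62.0% in WT cells at day 4 and 63.7% in 23-Tet1 cells at day 6.

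In WT cells all tested genes of the set but Plin3 were higher at day 2, after induction, than at day 0. No group was kept without the inducers to day 2, so the inducers and time in culture cannot be told apart. Of the 8 tested genes 7 were called higher and 1 lower at day 2 against day 0, where 18.9% of all genes tested were called higher and 43.2% lower (limma, Benjamini-Hochberg adjusted p under 0.05). Fitm1 did not pass the filter on low values in either table. The median change over the 8 was 3.00 log2 units. Every change printed is a difference between group means on the log2(FPKM + 1) scale with its SE, less the median difference over all tested genes, so that over all genes the median is 0. The added 1 FPKM makes changes of scarce transcripts look smaller than they are.

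Plin1 (chr7:79720218-79732903, minus strand) had 328, 437 and 325 FPKM in WT day 2 libraries, against 0.44, 1.92 and 0.55 FPKM at day 0. Cidec (chr6:113424634-113435760, minus strand) had 1905, 2667 and 1988 FPKM at day 2, against 3.38, 9.22 and 1.63 FPKM at day 0. Neither gene's days overlapped, and the changes were 7.98 ± 0.50 (adjusted p = 6.8e-10) for Plin1 and 9.18 ± 0.64 (adjusted p = 2.8e-09) for Cidec. Plin2 (chr4:86648386-86670060, minus strand) had 1148, 1118 and 1297 FPKM at day 2, against 222, 200 and 192 FPKM at day 0, a change of 2.92 ± 0.21. Fitm2 rose by 3.11 ± 0.26, Bscl2 by 3.07 ± 0.21, Plin4 by 2.80 ± 0.29 and Plin5 by 1.01 ± 0.16. The last of these started from values listed at 0 in 2 of 3 day 0 libraries and reached only 0.48 to 0.65 FPKM. Plin3 (chr17:56277476-56292873, minus strand), the perilipin that shuttles between cytosol and droplets, had 28.1, 27.1 and 30.9 FPKM at day 2, against 67.6, 75.9 and 77.4 FPKM at day 0, and fell by 0.94 (SE 0.20, adjusted p = 1.1e-05).

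Later steps in WT cells were smaller. At day 4 against day 2, 4 of 8 genes were called higher (6.86% of all genes were): Plin2 (1.21 ± 0.21), Plin5 (0.82 ± 0.16), Bscl2 (0.75 ± 0.21) and Plin3 (0.74 ± 0.20). The Bscl2 call was lost when any 1 of the 6 libraries was left out (adjusted p of 0.0544 to 0.148) and the Plin3 call when any of 5 was (0.0569 to 0.0936), and Plin5 was not called with a pseudocount of 0.1 (0.0772). Cidec (1.58 ± 0.64, adjusted p = 0.123) and Plin1 (1.09 ± 0.50, adjusted p = 0.196) were called in this step only under alternatives, such as the 2 groups alone (1.4e-05 and 9.2e-05). At day 6 against day 4, 3 of 8 were called lower (3.73% of all genes were): Plin4 by −1.32 ± 0.29, Plin2 by −1.31 ± 0.21 and Fitm2 by −1.18 ± 0.26. Cidec (−1.41) and Plin1 (−0.67) fell too, but were called only with the 2 groups alone (adjusted p = 2.8e-04 and 0.02). The Plin4 call was lost without WT day 6 replicate 2 (−1.10, adjusted p = 0.064) and the Fitm2 call without any of 3 libraries (WT day 4 replicates 2 and 3 and day 6 replicate 2, 0.0524 to 0.0553). Plin2 stood at 1093, 1239 and 1299 FPKM in WT day 6 libraries, against 2579, 2576 and 2533 FPKM at day 4. Plin5, by contrast, showed no call in that step and held its highest WT values at day 6, 2.17, 2.42 and 1.82 FPKM.

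**Figure D2:**
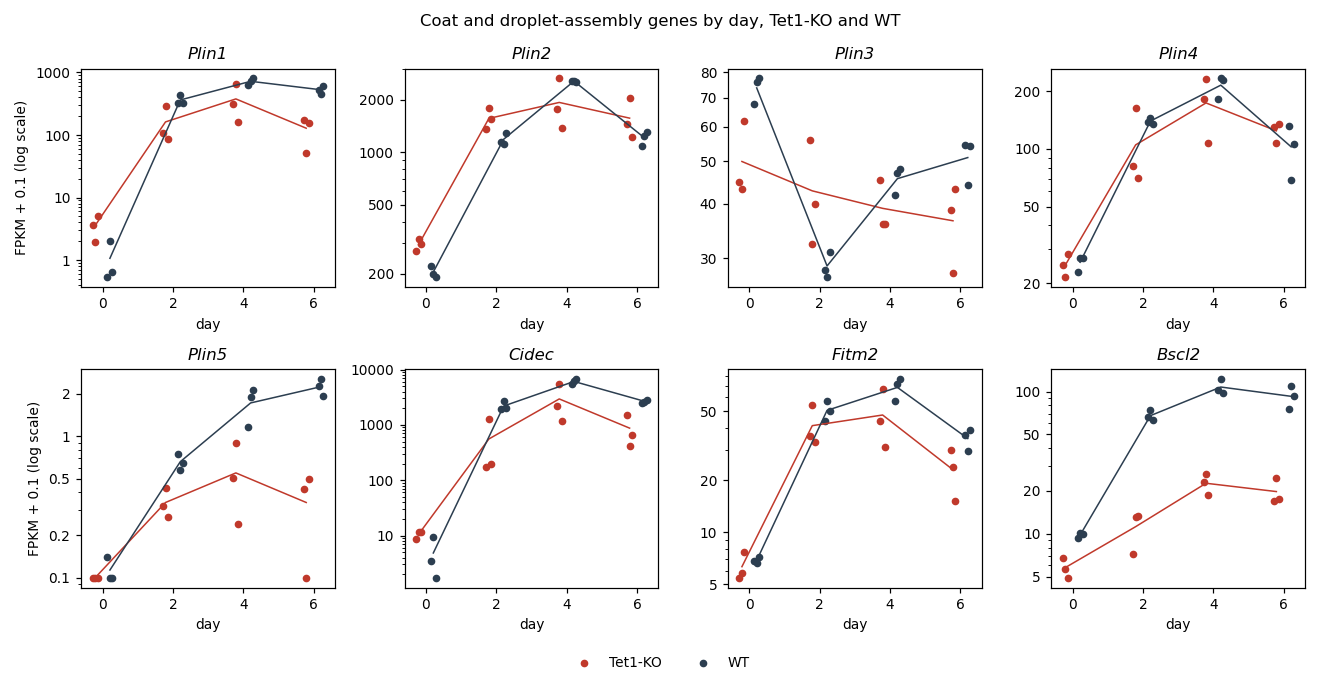
FPKM + 0.1 on a log scale for 8 genes by day in Tet1-KO (red, left) and WT cells (dark, right). Points are libraries and lines join the means of 3. Tet1-KO points of Bscl2 lie below WT points on all 4 days, whereas Plin2 points of the populations lie close together.

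Tet1-KO cells held less Bscl2 than WT cells on all 4 days, less Plin5 from day 4 and less Plin1 at day 6, whereas Plin2, the most abundant perilipin, was called on no day except under alternatives. The comparison asked how loss of Tet1 bears on adipocyte formation. Of the 8 tested genes, limma called 1 lower in Tet1-KO at day 0 (11% of all genes were), 2 at day 2 (6.76%), 2 at day 4 (6.22%) and 5 at day 6 (29.7%), and none higher on any day. The median change over the 8 genes was 0.05, −0.59, −0.81 and −0.79 at days 0, 2, 4 and 6. With library weights 3 genes were called lower and 3 higher at day 0 (Plin1, Plin2 and Cidec the higher ones), 6 lower and 2 higher at day 2, and 7 lower and 0 higher at day 4. The share of all genes called with library weights is not given here, so these counts cannot be read as particular to the set.

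Bscl2 (chr19:8837467-8848683, plus strand) encodes seipin. At day 0 it had 6.66, 5.59 and 4.81 FPKM in Tet1-KO libraries, against 9.27, 9.97 and 9.84 FPKM in WT libraries. At day 2 it had 7.11, 13.0 and 13.3 FPKM in Tet1-KO libraries, against 66.3, 73.7 and 62.9 FPKM in WT libraries. On neither day did the groups overlap, and the gap was wider at day 2, where all 3 WT libraries had moved far above their day 0 values and Tet1-KO libraries less so.

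At day 4 Bscl2 had 23.1, 26.04 and 18.6 FPKM in Tet1-KO libraries, against 103, 122 and 98.3 FPKM in WT libraries. The day 6 values were 17.0, 24.8 and 17.4 FPKM in Tet1-KO libraries, against 75.7, 109 and 93.2 FPKM in WT libraries. Every Tet1-KO library lay below every WT library on both days. The differences were −0.60 ± 0.21 at day 0 (adjusted p = 0.03), −2.71 ± 0.21 at day 2 (adjusted p = 2.0e-07), −2.30 ± 0.21 at day 4 (adjusted p = 1.2e-06) and −1.98 ± 0.21 at day 6 (adjusted p = 6.4e-07). The day 0 call was lost after quantile normalisation (adjusted p = 0.186), after median-ratio scaling (0.179) and when any of 5 of the 6 libraries was left out (0.0598 to 0.101). Without Tet1-KO day 6 replicate 2 the Bscl2 difference at day 6 was −2.34 (adjusted p = 4.6e-07). Bscl2 overlaps Gng3 on the opposite strand and a readthrough gene on its own, and whether counting used strand is not given in the sources used here, but Gng3 was at or under 1.12 FPKM in every library of the first table.

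Plin1, the gatekeeper of hormone-stimulated lipolysis, had 3.56, 1.88 and 5.00 FPKM in Tet1-KO day 0 libraries, against 0.44, 1.92 and 0.55 FPKM in WT libraries, a difference that was not called (1.29 ± 0.50, adjusted p = 0.109) but was under 4 alternatives (adjusted p of 1.5e-04 to 0.0429). Its day 2 values were 108, 290 and 87.7 FPKM in Tet1-KO libraries, against 328, 437 and 325 FPKM in WT libraries. At day 4 they were 310, 663 and 159 FPKM in Tet1-KO libraries, against 632, 731 and 800 FPKM in WT libraries. Replicate 2 of Tet1-KO was the highest of its group on both days and reached the WT range at day 4. Neither difference was called, −1.52 ± 0.50 at day 2 (adjusted p = 0.0582) and −1.25 ± 0.50 at day 4 (adjusted p = 0.12), but without replicate 2 both were (−2.11, adjusted p = 0.00925, and −1.81, adjusted p = 0.0179). With library weights both were called too (1.9e-04 and 4.0e-06). The day 2 difference was also called after median-ratio scaling (0.026), with the 2 groups alone (0.0468) and in a fit lacking Tet1-KO day 6 replicate 2 (0.0205). At day 6, with 176, 51.1 and 158 FPKM in Tet1-KO libraries against 525, 459 and 601 FPKM in WT libraries, Plin1 was lower by −2.02 ± 0.50 (adjusted p = 0.00177), and by −1.64 without Tet1-KO day 6 replicate 2 (adjusted p = 0.0114).

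Cidec had 8.50, 11.3 and 11.4 FPKM in Tet1-KO day 0 libraries, against 3.38, 9.22 and 1.63 FPKM in WT libraries, a difference of 1.30 ± 0.64 that was not called (adjusted p = 0.211) except with the 2 groups alone (0.0399) and with library weights (0.0442). Its day 2 values were 172, 1301 and 195 FPKM in Tet1-KO libraries, against 1905, 2667 and 1988 FPKM in WT libraries, a difference of −2.78 ± 0.64 (adjusted p = 0.00797) that was not called without Tet1-KO replicate 1 (0.0699) or 3 (0.053). At day 4 it had 2172, 5456 and 1189 FPKM in Tet1-KO libraries, against 5462, 6136 and 6642 FPKM in WT libraries, a difference of −1.42 ± 0.64 that was not called (adjusted p = 0.168). Tet1-KO day 4 replicate 2 thus nearly met the lowest WT value of Cidec, while its Bscl2 level, 26.04 FPKM, was far below the lowest WT value of 98.3 FPKM. At day 6 Cidec had 1535, 418 and 664 FPKM in Tet1-KO libraries, against 2530, 2616 and 2855 FPKM in WT libraries, a difference of −1.63 ± 0.64 (adjusted p = 0.0275). That call was lost without Tet1-KO day 6 replicate 2 (−1.39, adjusted p = 0.11), without any single one of 4 other libraries (0.054 to 0.0689) with only the 2 groups fitted (−1.58, 0.0587) and with library weights (−0.88, 0.238).

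Plin2 had 269, 316 and 297 FPKM in Tet1-KO day 0 libraries, against 222, 200 and 192 FPKM in WT libraries. At day 6 it had 1444, 2045 and 1222 FPKM in Tet1-KO libraries, against 1093, 1239 and 1299 FPKM in WT libraries. Tet1-KO libraries stood above WT libraries at day 0, but neither difference was called (0.61 ± 0.21, adjusted p = 0.102, and 0.54 ± 0.21, adjusted p = 0.195), and the second changed sign after quantile normalisation (−0.18). The day 0 difference was called when only the 2 groups were fitted (0.62, adjusted p = 0.00601), with library weights (0.55, 5.4e-06) and in a fit lacking Tet1-KO day 6 replicate 2 (0.61, 0.0308). At day 4 Plin2 spanned 1377 to 2653 FPKM in Tet1-KO and 2533 to 2579 FPKM in WT libraries, a difference of −0.55 that was not called. It was called lower there after quantile normalisation (−0.77, adjusted p = 0.0266), with library weights (−0.62, 7.4e-08) and without Tet1-KO day 4 replicate 2 (−0.84, 0.0112). Plin4 (chr17:56100591-56109803, minus strand), which binds droplets through a long repeated helix, was not called on any day, with differences of 0.04, −0.67, −0.46 and 0.51, though at day 2 it was without Tet1-KO replicate 2 (−1.11, adjusted p = 0.0187). It overlaps Hdgfl2 on the opposite strand, which averaged 38.3 to 76.8 FPKM in Tet1-KO groups and 41.7 to 98.2 FPKM in WT groups. Plin5 (chr17:56111601-56117596, minus strand) had 0.32, 0 and 0.40 FPKM in Tet1-KO day 6 libraries, against 2.17, 2.42 and 1.82 FPKM in WT libraries. The groups did not overlap, and Plin5 was lower by −1.15 ± 0.16 at day 6 (adjusted p = 7.3e-06) and by −0.95 ± 0.16 at day 4 (adjusted p = 0.00208), the second not called when only the 2 groups were fitted (0.0579).

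Plin3 was called lower at day 6 by −0.29 ± 0.20 (adjusted p = 0.0496), with 38.5, 27.6 and 43.2 FPKM in Tet1-KO libraries, against 54.5, 44.2 and 54.1 FPKM in WT libraries, but 8 of the alternatives tried lost the call (adjusted p of 0.0504 to 0.255), among them the fit without Tet1-KO day 6 replicate 2 (−0.30, adjusted p = 0.195). Fitm2 (chr2:163466379-163472629, minus strand), which helps droplets bud from the endoplasmic reticulum, had 29.9, 23.6 and 15.0 FPKM in Tet1-KO day 6 libraries, against 36.1, 29.3 and 38.6 FPKM in WT libraries. The groups overlapped and no day was called, with differences of −0.03, −0.48, −0.67 and −0.43. Without Tet1-KO day 4 replicate 2, however, Fitm2, Plin1, Plin2 and Cidec were also called lower at day 4, which took the count there to 6. The share of all genes called in that fit is not given here.

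In Tet1-KO cells 6 of the 8 genes were still called higher at day 2 against day 0 (7.72% of all genes were). Plin1 rose by 5.14 ± 0.50, Cidec by 5.07 ± 0.64, Fitm2 by 2.62 ± 0.26, Plin2 by 2.50 ± 0.21, Plin4 by 2.05 ± 0.29 and Bscl2 by 0.92 ± 0.21. The Bscl2 call was lost with the 2 groups alone (adjusted p = 0.0506) and without Tet1-KO day 2 replicate 2 (0.73, adjusted p = 0.0581). The step to day 4 brought 2 higher calls (4.25% of all genes), Cidec (2.97 ± 0.64) and Bscl2 (1.19 ± 0.21), and the step to day 6 brought 1 lower call (6.24% of all genes), Fitm2 (−0.96 ± 0.26). None of these 3 calls was made with the 2 groups alone (adjusted p = 0.132 for Cidec, 0.108 for Bscl2 and 0.67 for Fitm2). The Cidec call was also lost without Tet1-KO day 2 replicate 1 or 3 or day 4 replicate 2 (0.0524 to 0.0703), and the Fitm2 call without day 4 replicate 1 or 2 (0.064 and 0.129). In the step to day 6, Cidec (−1.63) and Plin1 (−1.45) fell further than Fitm2 but were called only under some alternatives. Without Tet1-KO day 4 replicate 3, for example, their adjusted p was 0.0362 and 0.0163. Plin3, which fell in WT cells in the first step, had −0.14 ± 0.20 in Tet1-KO cells and was not called (adjusted p = 0.422). Tested as a difference between the populations, the change over all 6 days was smaller in Tet1-KO cells for 4 of 8 genes (10.6% of all genes were), Plin1 (−3.32 ± 0.71), Cidec (−2.94 ± 0.91), Bscl2 (−1.40 ± 0.29) and Plin5 (−1.24 ± 0.23).

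Beside these differences, other transcripts moved too. The summed FPKM of 6 adipocyte markers (Adipoq, Fabp4, Lep, Retn, Cfd and Lpl) spanned 206 to 394, 7925 to 46764, 21756 to 79421 and 28587 to 33629 in Tet1-KO libraries at days 0, 2, 4 and 6, against 38 to 167, 47772 to 62407, 82062 to 102852 and 59971 to 65290 in WT libraries, with Lep at or under 0.5 FPKM in all groups. That of 5 myofibroblast markers (Acta2, Tagln, Cnn1, Myl9 and Myh11) spanned 123 to 433, 56.7 to 592 and 83.7 to 1102 FPKM in Tet1-KO libraries at days 2, 4 and 6, against 5.68 to 12.6, 6.35 to 10.3 and 53.4 to 83.5 FPKM in WT libraries. At day 0, before induction, it already spanned 1477 to 1646 FPKM in Tet1-KO and 576 to 606 FPKM in WT libraries. Acta2 carried most of these sums, averaging 452 FPKM in Tet1-KO and 63.9 FPKM in WT libraries at day 6. Tagln averaged higher then too (6.02 and 0.89 FPKM), though libraries of the 2 groups overlapped. Of 3 tested myofibroblast markers, 2 were called higher and 1 lower at day 6, and 1 and 1 without Tet1-KO day 6 replicate 2. Myl9 went the other way, averaging lower in Tet1-KO cells on all 4 days (0.54 and 8.13 FPKM at day 6). At day 6 chondrocyte markers summed to 25.7 to 81.6 FPKM in Tet1-KO libraries, against 4.08 to 13.8 FPKM in WT libraries, and osteoblast markers to 15.3 to 20.2 FPKM in Tet1-KO libraries, against 3.17 to 5.15 FPKM in WT libraries. At day 0 the chondrocyte sum was instead lower in Tet1-KO (164 to 223 FPKM) than in WT libraries (324 to 374 FPKM). The osteoblast sums overlapped then (16.8 to 28.1 and 17.7 to 19.1 FPKM). Of tested markers, 1 of 4 chondrocyte and 2 of 2 osteoblast ones were called higher at day 6. Without Tet1-KO day 6 replicate 2 these counts were 1 and 1. The part of these markers in the results was not tested. Acan, Sp7 and Ibsp of those lists were at or under 0.5 FPKM in every group, and Cnn1 was at or under 0.5 FPKM in every group. Of 5 macrophage markers the sum spanned 36 to 45.7 FPKM in Tet1-KO day 0 libraries, against 4.38 to 5.14 FPKM in WT libraries, whose part was likewise not tested. Lyz2 carried that gap, averaging 38.9 FPKM in Tet1-KO and 3.2 FPKM in WT libraries, while Cd68 was alike (1.7 and 1.54 FPKM). The defining macrophage markers Ptprc and Adgre1 were at or under 0.5 FPKM in all 20 groups, as were the muscle markers Myod1, Myog, Myh3 and Actc1.

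**Figure D3:**
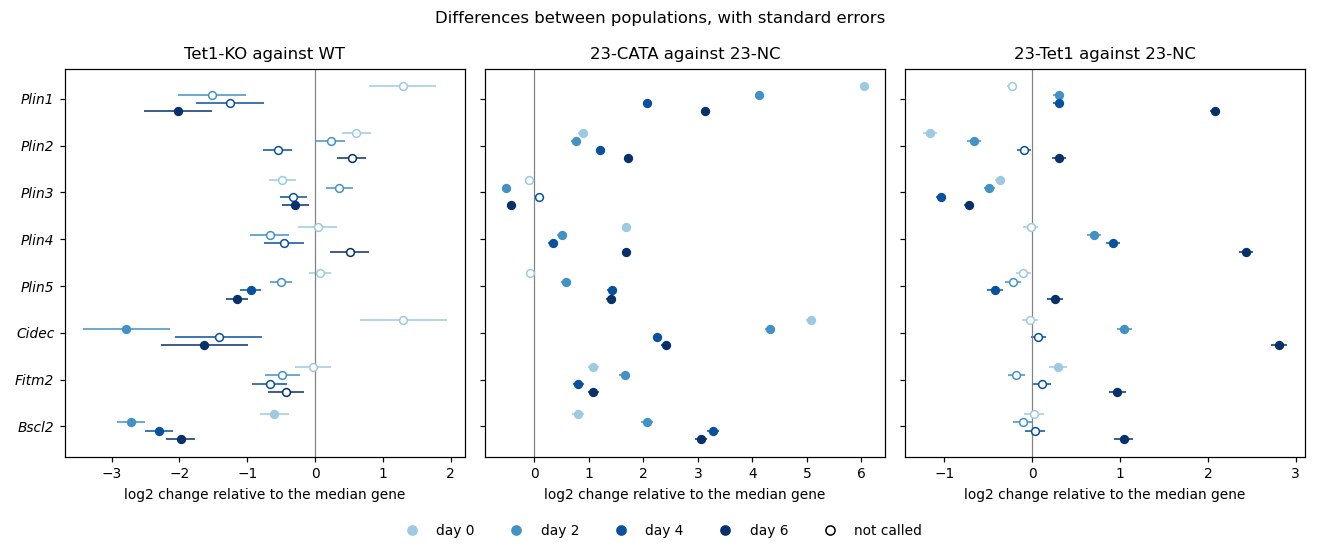
Log2 changes relative to the median gene, with standard errors, for 8 genes on 4 days in 3 comparisons (panels). Filled points were called at an adjusted p under 0.05 and open points were not. Bscl2 is lower in Tet1-KO and higher in 23-CATA cells on every day, and in 23-Tet1 cells it is called at day 6 alone.

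23-CATA cells carried droplet transcripts before the inducers were added and held more of most of them than 23-NC cells on every day. The labels do not state the question of this comparison, and it shares the 23-NC libraries with that of 23-Tet1 cells. limma called 6 of 8 genes higher in 23-CATA at day 0 (31.6% of all genes were), 7 higher and 1 lower at day 2 (34.3% and 30.7% of all genes), 7 higher at day 4 (28.9%) and 7 higher and 1 lower at day 6 (38% and 36.4%). The median over the 8 genes was 0.98, 1.21, 1.31 and 1.70.

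At day 0 Plin1 had 76.5, 83.4 and 80.8 FPKM in 23-CATA libraries, against 0.14, 0.08 and 0.23 FPKM in 23-NC libraries. Cidec had 38.5, 41.5 and 42.9 FPKM in 23-CATA libraries, against 0.28, 0.04 and 0.13 FPKM in 23-NC libraries. Uninduced 23-CATA cells thus lay near or above the day 2 levels of 23-NC cells, which were 21.3, 22.0 and 22.0 FPKM for Plin1 and 31.8, 31.9 and 34.7 FPKM for Cidec. The day 0 differences were 6.04 ± 0.06 for Plin1 (adjusted p = 2.7e-34), 5.08 ± 0.09 for Cidec (adjusted p = 3.6e-27), 1.69 ± 0.08 for Plin4, 1.08 ± 0.10 for Fitm2, 0.89 ± 0.08 for Plin2 and 0.80 ± 0.11 for Bscl2. Plin3 (−0.09 ± 0.06, adjusted p = 0.834) and Plin5 (−0.07 ± 0.09, adjusted p = 0.782) were not called, Plin5 being listed at 0 in 2 of 3 23-CATA and all 3 23-NC libraries. The 6 adipocyte markers summed to 2255 to 2422 FPKM in 23-CATA day 0 libraries, against 32.7 to 34.0 FPKM in 23-NC libraries. The 5 macrophage markers summed to 35.4 to 36.2 FPKM in 23-CATA day 0 libraries, against 5.32 to 9.18 FPKM in 23-NC libraries, whose part was not tested. Cd68 carried most of that difference, averaging 32.3 FPKM in 23-CATA and 5.12 FPKM in 23-NC libraries.

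Bscl2 separated these populations most at day 4. It had 68.6, 61.8 and 80.7 FPKM in 23-CATA libraries, against 7.19, 7.14 and 5.93 FPKM in 23-NC libraries. At day 6 it had 63.4, 70.2 and 63.7 FPKM in 23-CATA libraries, against 7.09, 7.54 and 6.17 FPKM in 23-NC libraries. The groups did not overlap on any day, and the differences were 0.80, 2.07, 3.28 and 3.06 ± 0.11 at days 0, 2, 4 and 6. The differences of Plin1 were instead largest at day 0 and were 4.13, 2.07 and 3.13 ± 0.06 at days 2, 4 and 6, and those of Cidec were 4.32, 2.26 and 2.41 ± 0.09. Gng3, which overlaps Bscl2, averaged 0.507 to 2.77 FPKM in 23-CATA groups and 1.54 to 2.83 FPKM in 23-NC groups, below Bscl2 in each, and it was not the higher in 23-CATA at day 4 (1.27 ± 0.535 FPKM in 23-CATA and 2.83 ± 0.692 FPKM in 23-NC cells), where Bscl2 differed most. In the change from day 0 to day 6, 23-CATA differed from 23-NC by −2.90 ± 0.09 for Plin1 and −2.67 ± 0.13 for Cidec but by 2.26 ± 0.15 for Bscl2, with 3 genes higher and 3 lower of 8 (27.5% and 36% of all genes).

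Plin2 had 2065, 2237 and 2126 FPKM in 23-CATA day 6 libraries, against 616, 685 and 630 FPKM in 23-NC libraries, a difference of 1.72 ± 0.08. Plin5 had 2.74, 2.14 and 2.32 FPKM in 23-CATA day 6 libraries, against 0.24, 0.24 and 0.33 FPKM in 23-NC libraries, a difference of 1.40 ± 0.09. Both sets of libraries were well apart. Plin4 had 157, 135 and 147 FPKM in 23-CATA day 6 libraries, against 47.5, 43.2 and 42.7 FPKM in 23-NC libraries (1.68 ± 0.08), but its day 4 difference of 0.34 ± 0.08 was −0.04 after quantile normalisation (adjusted p = 0.504). Fitm2 was higher in 23-CATA by 1.08, 1.66, 0.81 and 1.08 ± 0.10 at days 0, 2, 4 and 6. Plin3 went the other way, with 77.6, 80.8 and 81.3 FPKM in 23-CATA day 6 libraries, against 103, 113 and 106 FPKM in 23-NC libraries, a difference of −0.43 ± 0.06 (adjusted p = 6.6e-07).

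**Figure D4:**
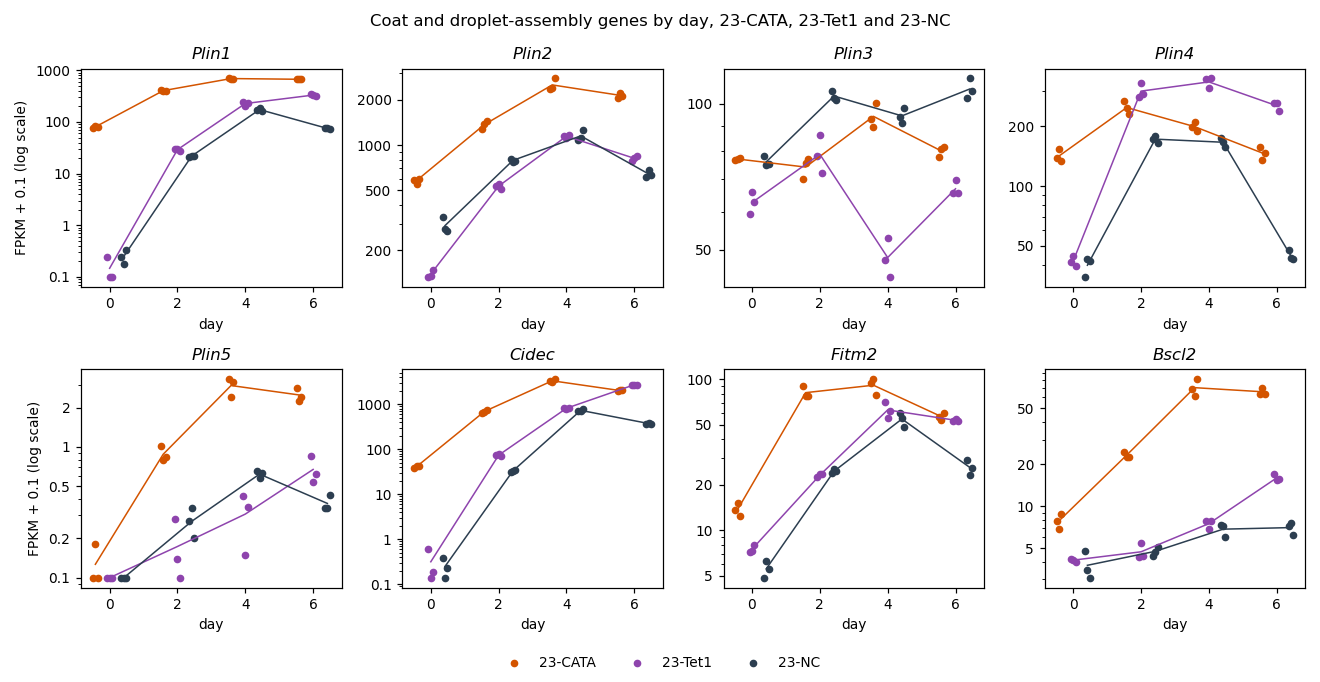
FPKM + 0.1 on a log scale for 8 genes by day in 23-CATA (orange, left), 23-Tet1 (purple, middle) and 23-NC cells (dark, right). Points are libraries and lines join the means of 3. Plin1 and Cidec of 23-CATA start near 80.2 and 40.9 FPKM at day 0, and most 23-NC lines turn down between days 4 and 6.

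23-Tet1 cells held more of 7 of the 8 genes than 23-NC cells at day 6, while on earlier days calls went in both directions and fewer genes were called. limma called 1 gene higher and 2 lower at day 0 (37.8% and 23.5% of all genes), 3 and 2 at day 2 (38.7% and 25.2%), 2 and 2 at day 4 (35% and 21.9%), and 7 and 1 at day 6 (36% and 29%), with medians of −0.06, −0.14, 0.05 and 1.00. After quantile normalisation 7 genes were called at day 4, for which the share of all genes is not given here.

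At day 6 Cidec had 2670, 2737 and 2710 FPKM in 23-Tet1 libraries, against 360, 387 and 371 FPKM in 23-NC libraries. Plin1 had 340, 340 and 314 FPKM in 23-Tet1 libraries, against 74.8, 76.0 and 73.9 FPKM in 23-NC libraries. No libraries overlapped, and the differences were 2.81 ± 0.09 for Cidec (adjusted p = 9.9e-21) and 2.08 ± 0.06 for Plin1 (adjusted p = 2.8e-22). At day 2 Cidec was already higher by 1.05 ± 0.09 (adjusted p = 1.4e-11), with 73.4, 78.5 and 69.0 FPKM in 23-Tet1 libraries, against 31.8, 31.9 and 34.7 FPKM in 23-NC libraries. At day 4 Plin1 differed by 0.30 ± 0.06 (adjusted p = 3.4e-06, and 0.0871 with a pseudocount of 0.1) and Cidec by 0.07 ± 0.09 (adjusted p = 0.164), with 845, 772 and 821 FPKM in 23-Tet1 libraries, against 708, 693 and 789 FPKM in 23-NC libraries. Bscl2 was not called at days 0, 2 and 4 and was higher by 1.04 ± 0.11 at day 6, with 16.9, 15.2 and 15.4 FPKM in 23-Tet1 libraries, against 7.09, 7.54 and 6.17 FPKM in 23-NC libraries.

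Plin4 differed from early on. It had 280, 329 and 291 FPKM in 23-Tet1 day 2 libraries, against 172, 179 and 165 FPKM in 23-NC libraries, and 260, 262 and 238 FPKM in 23-Tet1 day 6 libraries, against 47.5, 43.2 and 42.7 FPKM in 23-NC libraries. Its differences were −0.02, 0.70, 0.92 and 2.43 ± 0.08 at days 0, 2, 4 and 6. Plin2 was lower in 23-Tet1 at day 0, with 133, 136 and 148 FPKM against 331, 277 and 268 FPKM in 23-NC libraries (−1.16 ± 0.08, adjusted p = 1.0e-12), and at day 2 (−0.66 ± 0.08), and higher at day 6 (0.30 ± 0.08). Plin3 was lower on all 4 days, by −0.37, −0.49, −1.04 and −0.72 ± 0.06, and had 47.6, 52.9 and 43.9 FPKM in 23-Tet1 day 4 libraries, against 94.0, 91.1 and 97.9 FPKM in 23-NC libraries. Fitm2 was higher at day 0 (0.29 ± 0.10) and day 6 (0.97 ± 0.10), and Plin5 was lower at day 4 (−0.42 ± 0.09) and higher at day 6 (0.26 ± 0.09, not called after quantile normalisation, adjusted p = 0.142). The change from day 0 to day 6 was larger in 23-Tet1 than in 23-NC cells for 7 of 8 genes and smaller for Plin3 (29.1% and 32.3% of all genes). The 6 adipocyte markers summed to 46998 to 54899 FPKM in 23-Tet1 day 6 libraries, against 9993 to 11356 FPKM in 23-NC libraries. The 5 myofibroblast markers summed to 3.07 to 3.62 FPKM in 23-Tet1 day 6 libraries, against 15.6 to 17.4 FPKM in 23-NC libraries, and the 5 macrophage markers to 74.7 to 78.7 FPKM in 23-Tet1 libraries, against 125 to 132 FPKM in 23-NC libraries. Cd68 made up nearly all of the macrophage sum, averaging 77.0 FPKM in 23-Tet1 and 128 FPKM in 23-NC libraries. The part of these markers was not tested. The change differed by 2.83 ± 0.13 for Cidec, 2.45 ± 0.11 for Plin4, 2.31 ± 0.09 for Plin1 and 1.45 ± 0.11 for Plin2.

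Between days 4 and 6 Cidec and Plin1 fell in 23-NC cells and rose in 23-Tet1 cells, whereas Plin2 and Plin4 fell and Plin3 rose in both. In 23-NC cells 6 of 8 genes were lower at day 6 than at day 4 and 1 was higher (29% and 31.6% of all genes). Plin4 had 47.5, 43.2 and 42.7 FPKM in 23-NC day 6 libraries, against 174, 167 and 157 FPKM at day 4 (−1.89 ± 0.08). Plin1 had 74.8, 76.0 and 73.9 FPKM at day 6, against 172, 183 and 166 FPKM at day 4 (−1.21 ± 0.06). Fitm2 was lower by −1.05 ± 0.10, Cidec by −0.98 ± 0.09, Plin2 by −0.85 ± 0.08 and Plin5 by −0.27 ± 0.09, and Plin3 was higher by 0.17 ± 0.06. The Plin3 call was lost without 23-NC day 4 replicate 2 (adjusted p = 0.0573) or day 6 replicate 2 (0.0741). That of Plin5 was lost without 23-NC day 6 replicate 1 (0.0519) or 2 (0.0513). In 23-Tet1 cells 5 of 8 were higher at day 6 than at day 4 and 2 lower (26.8% and 30% of all genes), with Cidec up by 1.76 ± 0.09, Bscl2 by 1.03 ± 0.11 and Plin1 by 0.57 ± 0.06, and Plin2 down by −0.46 ± 0.08 and Plin4 by −0.37 ± 0.08. In 23-CATA cells 5 of 8 were lower at day 6 (9.77% of all genes were), led by Cidec (−0.83 ± 0.09) and Fitm2 (−0.79 ± 0.10). That Cidec call was not made with a pseudocount of 0.1 (adjusted p = 0.057). The call of Plin2 (−0.34) was lost under several alternatives (0.055 to 0.151).

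The first steps were alike in kind. At day 2 against day 0, 7 of 8 genes were called higher in 23-CATA cells (27% of all genes were), 6 in 23-Tet1 cells (28.8%) and 8 in 23-NC cells (24.4%), and none lower. In 23-NC cells the count was 6 to 7 when single libraries were left out, the Plin5 call being lost without 5 of the 6 (adjusted p of 0.0705 to 0.144) and the Bscl2 call without 3 (0.0841 to 0.19) and with the 2 groups alone (0.128). Cidec led each, by 4.20 ± 0.09, 6.00 ± 0.09 and 4.95 ± 0.09, and Plin1 came next in 23-Tet1 (4.89 ± 0.06) and 23-NC cells (4.38 ± 0.06). In 23-CATA cells Fitm2 came second (2.64 ± 0.10) and then Plin1 (2.47 ± 0.06). At day 4 against day 2, 6 were higher and 1 lower in 23-CATA cells (20% and 43.2% of all genes), 5 and 1 in 23-Tet1 cells (21.8% and 26.6%), and 6 and 0 in 23-NC cells (24.6% higher). Plin3 moved differently in each population in that step, by 0.49 ± 0.06 in 23-CATA, by −0.66 ± 0.06 in 23-Tet1 and by −0.10 ± 0.06 in 23-NC cells, the last not called (adjusted p = 0.0677).

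Set directly against 23-Tet1 cells, 23-CATA cells held more of most genes but less Plin4 from day 2 on. Of 8 genes, 7 were called higher and 0 lower at day 0 (32.9% of all genes were higher), 6 and 1 at day 2 (30.3% and 37.1% of all genes), 7 and 1 at day 4 (27.6% and 46.6%), and 5 and 2 at day 6 (31.9% and 33.8%). Plin4 had 157, 135 and 147 FPKM in 23-CATA day 6 libraries, against 260, 262 and 238 FPKM in 23-Tet1 libraries, and its differences were 1.73, −0.22, −0.58 and −0.78 ± 0.08 at days 0, 2, 4 and 6. Bscl2 was higher in 23-CATA by 0.79, 2.16, 3.24 and 1.99 ± 0.11. Cidec was higher by 5.12, 3.26 and 2.19 ± 0.09 at days 0, 2 and 4 and lower at day 6 (−0.42 ± 0.09), with 1947, 2031 and 2050 FPKM in 23-CATA libraries, against 2670, 2737 and 2710 FPKM in 23-Tet1 libraries. That last call was not made with a pseudocount of 0.1 (adjusted p = 0.208). Plin2 was higher by 1.29 to 2.05 on the 4 days, and Fitm2 was not called at day 6 (0.09 ± 0.10, adjusted p = 0.475).

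Bscl2 did not keep step with Plin1. In 23-NC cells Plin1 averaged 174 ± 8.86 FPKM at day 4 while Bscl2 averaged 6.75 ± 0.713 FPKM, little above its day 0 mean of 3.68 ± 0.874 FPKM. In 23-CATA cells at day 0, Bscl2 averaged 7.75 ± 0.981 FPKM at 80.2 ± 3.49 FPKM of Plin1. In Tet1-KO cells at day 4, Bscl2 averaged 22.6 ± 3.74 FPKM at 377 ± 259 FPKM of Plin1. Values of the 2 tables were not tested against each other, since whether they were scaled alike is not given in the sources used here.

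**Figure D5:**
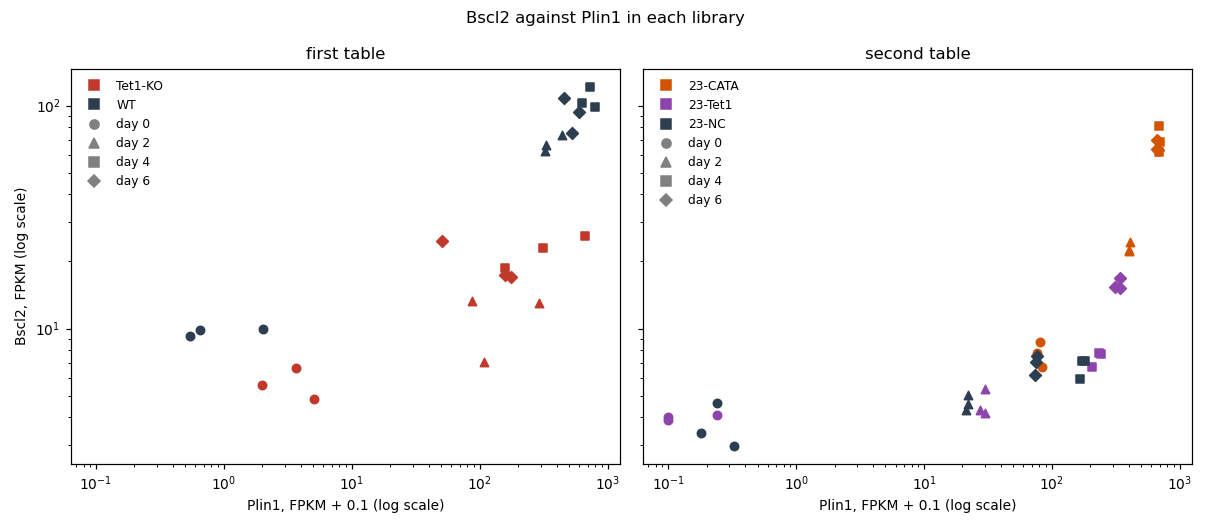
Bscl2 FPKM against Plin1 FPKM + 0.1, both on log scales, in each library of the first (left) and second table (right), with colours for populations and shapes for days. Tet1-KO day 4 replicate 2 stands at 663 FPKM of Plin1 and 26.04 FPKM of Bscl2, below the WT libraries of like Plin1, and 23-NC and 23-Tet1 libraries stay under 10 FPKM of Bscl2 until day 4.

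Fitm1 (chr14:55575617-55576954, plus strand), the muscle-type member of the FIT family, was near the limit of detection throughout. It was listed at 0 in 15 of 23 libraries of the first table with a known depth and in 28 of 36 of the second. Its highest values were 0.85 FPKM in Tet1-KO day 4 replicate 2 and 0.67 FPKM in 23-CATA day 6 replicate 3, which correspond to about 11 and 7 fragments. At day 4 it had 0.33, 0.56 and 0.19 FPKM in 23-CATA libraries and was listed at 0 in all 23-Tet1 and 23-NC libraries, the clearest pattern it showed. An exact two-sided permutation test over 31 comparisons reached p = 0.1 in 2 of them, both of 23-CATA at day 4. That is the smallest p that 3 against 3 allows, so this test cannot pass 0.05 in this design. With no filter on low values, limma called all 9 genes in 23-CATA against 23-NC cells at day 6 (8 higher and 1 lower), Fitm1 among them. How many of all genes that fit called is not given here.

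Genes that work beside the coat moved in the same comparisons, in lists drawn up with earlier results of these data known. Of 29 tested genes of other droplet-associated proteins (lipases, their regulators, acyl-CoA synthetases and droplet enzymes), 0 were higher and 18 lower in Tet1-KO than in WT cells at day 6, with a median of −1.03 (15.7% and 29.7% of all genes were), and 15 were lower without Tet1-KO day 6 replicate 2. At day 0 the counts were 1 and 4 (5.83% and 11% of all genes), at day 2 3 and 6 (16.2% and 6.76%), and at day 4 0 and 8 (9.79% and 6.22%). Pnpla2, which encodes the triglyceride lipase ATGL, averaged 429 ± 362 FPKM in Tet1-KO day 6 libraries and 2723 ± 551 FPKM in WT libraries (−2.99 ± 0.60). G0s2, an inhibitor of that lipase, differed by −1.88 ± 0.79, and Cidea, a relative of Cidec, by −3.27 ± 0.45. Of 12 tested genes of triglyceride assembly 7 were lower and 0 higher at day 6, led by Dgat2, which adds the last acyl chain (21.4 ± 19.2 FPKM in Tet1-KO and 293 ± 76.3 FPKM in WT libraries, −3.93 ± 0.75), Agpat2 (−2.51 ± 0.66) and Lpin1 (−2.12 ± 0.45).

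In 23-CATA against 23-NC cells 11 of the 29 droplet-associated genes were higher and 7 lower at day 0 (31.6% and 11.7% of all genes), with a median of 0.01, and 16 and 7 at day 6 (38% and 36.4%). At day 0 G0s2 averaged 82.8 ± 3.80 FPKM in 23-CATA and 2.51 ± 1.38 FPKM in 23-NC libraries (4.53 ± 0.18). The fatty acid-activating Acsl1 differed by 3.18 ± 0.06 and the hormone-sensitive lipase gene Lipe by 2.83 ± 0.07, whereas Acsl3 was lower (−1.26 ± 0.07). Of the 12 assembly genes 9 were higher and 0 lower at day 0. In 23-Tet1 against 23-NC cells 20 of 29 droplet-associated genes were higher and 7 lower at day 6, against 36% and 29% of all genes, led by G0s2 (250 ± 23.1 FPKM in 23-Tet1 and 9.04 ± 1.83 FPKM in 23-NC libraries, 4.61 ± 0.18), and 9 of 12 assembly genes were higher and 2 lower. At day 4 the assembly counts were 2 and 8 (35% and 21.9% of all genes), with Dgat2 lower by −1.56 ± 0.06.

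The genes whose group means ran most like those of 3 members were found by Pearson correlation of mean log2(FPKM + 1), over 8 groups in the first table and 12 in the second, whose points share libraries and a common rise with induction. For Plin1 they were Nabp1 (r = 0.9929), Cidec, Pnpla2, Tmed5 and Pex16 in the first table and Lipe (r = 0.9835), Adipoq, Fabp4, Cidec and Fcor in the second. For Cidec they were Mcrip2 (r = 0.9968), Dld, Pex16, Lipe and Plin1 in the first and Fcor (r = 0.9915), Pcx, Rnf125, Lipe and Fabp4 in the second. For Plin2 they were Nabp1 (r = 0.9739), Ddx28, Plin4, Tsc22d3 and Psen2 in the first and Tomm6 (r = 0.9538), Lipe, Cebpa, Dgat1 and Nadsyn1 in the second.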

How the data were processed

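RNA-seq values of 60 libraries were used. Per the submitters' processing notes, reads were aligned with STAR 2.4.1a to mm10 and expression was estimated with RSEM. Libraries were made with a TruSeq RNA kit, per the labels' protocols. The deposited values are FPKM per gene, given by the authors to 2 decimals; read counts were not used here. Library sums of FPKM were 612993 to 1060628 (first table) and 503085 to 733105 (second), and testing stayed within a table. Titles gave the groups; 11 samples titled 23-Tet1 carry another genotype tag.

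The test was limma 3.58.1 (R 4.3.3; eBayes with its trend option after lmFit and contrasts.fit) on log2(FPKM + 1), 1 fit per table over all its groups. It took in the 11911 and 12231 genes that reached 1 FPKM in 3 libraries, and a call needed an adjusted p (Benjamini-Hochberg, all these genes) under 0.05. This gave 34 comparisons: 16 between populations, 15 between consecutive days and 3 of the day 0 to day 6 change. The p belongs to the fitted change, whereas printed changes are relative to the median gene. That median moved by over 0.1 in the following comparisons. Between Tet1-KO and WT it was 0.17 at day 2 and −0.20 at day 6. In WT it was −0.39 (day 2 against 0) and 0.22 (6 against 4), and in Tet1-KO −0.10 (2 against 0) and −0.20 (4 against 2). In 23-CATA it was −0.16, −0.15 and 0.11 over the 3 steps, and at day 0 against 23-NC 0.11 and at day 4 against 23-Tet1 −0.16.

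The genes and lists were chosen with earlier results of these data known. Named were the 9 genes in every comparison and, from other lists, up to 3 rises and 3 falls per comparison, by size, among called genes whose libraries did not overlap and whose higher group averaged 5 FPKM or more; Tet1, Gapdh and the genes that overlap a member were added after their values were seen. Residuals of same-numbered libraries correlated between −0.254 and 0.367, and every pair exceeded 0.1 in 1 of 16 comparisons, so libraries were not paired. Depth came from the step between low FPKM values of single-transcript genes of GENCODE M21 (median 15.6 M fragments), and positions from the same annotation. The fit was tested on simulated data. Tried as alternatives were median-ratio scaling, quantile normalisation, no filter, a pseudocount of 0.1, a fit of the compared groups alone, a replicate block, library weights (limma arrayWeights, which did not reach its convergence tolerance) and each library left out. Tables and plots used Python 3.11.15 (pandas 2.3.3, numpy 2.4.6, matplotlib 3.10.9, scipy 1.17.1).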

Additional observations from a re-analysis of the deposited data

Results flagged for a closer look

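The change from day 0 to day 6 differed between populations for 18 gene and comparison pairs by the test of that difference in limma (adjusted p under 0.05). In Tet1-KO against WT cells the differences were −3.32 for Plin1, −2.94 for Cidec, −1.40 for Bscl2 and −1.24 for Plin5. In 23-Tet1 against 23-NC cells they were 2.83 for Cidec, 2.45 for Plin4, 2.31 for Plin1, 1.45 for Plin2, 1.01 for Bscl2, 0.67 for Fitm2, 0.34 for Plin5 and −0.36 for Plin3. In 23-CATA against 23-NC cells they were −2.90 for Plin1, −2.67 for Cidec, −0.35 for Plin3, 0.83 for Plin2, 1.47 for Plin5 and 2.26 for Bscl2. The 2 comparisons of the second table share the 23-NC libraries. The Cidec difference of Tet1-KO against WT was not called with library weights (adjusted p = 0.0568) or without any single one of 6 libraries (0.0521 to 0.0814), and that of Plin5 in 23-Tet1 was not called under 12 alternatives (0.0582 to 0.434).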

How the results depend on the processing

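The count of the 8 tested genes called moved by over 1.5 times in these cases, and by less in all other comparisons and alternatives run. The share of all genes called under each alternative is not given here, so a moved count cannot be read as particular to these genes. For Tet1-KO against WT at day 0, 1 gene was called, against 2 with a pseudocount of 0.1, 0 after median-ratio scaling, 2 with the replicate block, 6 with library weights, 5 with the compared groups alone and 4 in a fit lacking Tet1-KO day 6 replicate 2. At day 2, 2 became 8 with library weights and 4 without that library, at day 4, 2 became 7 with library weights and 1 with the compared groups alone, and at day 6, 5 became 3 with the compared groups alone. For Tet1-KO day 4 against day 2, 2 became 4 with library weights, 0 with the compared groups alone and 4 without that library, and for day 6 against day 4, 1 became 2 after median-ratio scaling, 5 with library weights and 0 with the compared groups alone. For WT day 4 against day 2, 4 became 8 with library weights and 8 with the compared groups alone, and for day 6 against day 4, 3 became 5 with the compared groups alone. For 23-Tet1 against 23-NC, 3 became 5 at day 0 with library weights and 4 became 7 at day 4 after quantile normalisation. Leaving out single libraries gave 0 to 1, 1 to 5, 2 to 6 and 3 to 5 genes for Tet1-KO against WT at days 0, 2, 4 and 6. It gave 1 to 4 and 0 to 3 for the later steps in Tet1-KO cells, and 2 to 3 and 1 to 3 for those in WT cells. Signs turned for Plin2 in Tet1-KO against WT at day 6 (−0.18) and Plin4 in 23-CATA against 23-NC at day 4 (−0.04), both after quantile normalisation. The replicate block moved no other count by over 1.5 times and no call of a gene whose alternatives were tabulated (those called, or with a change of 0.5 or more, in the comparison). The cause of these changes was not tested. Bscl2 stayed called in Tet1-KO against WT at days 2, 4 and 6 under every alternative run (−2.90 to −1.80, adjusted p at most 0.0138). Values under about 0.1 FPKM, as for Plin5 at day 0 and Fitm1, rest on single fragments.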
